A study of Mus musculus with 4 samples.

Results

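Expression of 9 genes of growth metabolism was followed across the immune cells of the mouse peritoneal cavity. They are Myc (ENSMUSG00000022346), the polyamine genes Odc1 (ENSMUSG00000011179) and Srm (ENSMUSG00000006442), the serine and one-carbon genes Phgdh (ENSMUSG00000053398), Psat1 (ENSMUSG00000024640), Shmt2 (ENSMUSG00000025403) and Mthfd2 (ENSMUSG00000005667), and the nucleolar genes Ncl (ENSMUSG00000026234) and Npm1 (ENSMUSG00000057113). The members were chosen by symbol, and all 9 were found among the 32285 genes of both expression libraries. Cells came from knockout (KO) mice and wild-type (WT) mice, all of which ate a high-fat diet that began at an age of 4 weeks and lasted 3 months. The knocked-out gene is not reported. CD45-positive cells sorted from lavage fluid were profiled in droplets, per the labels, with 1 expression library and 1 B-cell receptor library per genotype. How many mice each library pools is not stated in the labels.

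MYC is a transcription factor that drives cell growth, and genes of nucleotide, polyamine and ribosome synthesis are among its known targets. ODC1 makes putrescine from ornithine in the first step of polyamine synthesis, and SRM joins an aminopropyl group to putrescine to make spermidine. PHGDH and PSAT1 catalyse the first and second steps of serine synthesis, and SHMT2 and MTHFD2 carry the serine carbon through the mitochondrial folate pathway. NCL (nucleolin) and NPM1 (nucleophosmin) are abundant nucleolar proteins of ribosome assembly. B-1 cells renew themselves in body cavities and secrete natural IgM, and B-2 cells are the conventional, recirculating B cells.

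The start-site regions of Odc1 and Phgdh are shown because Phgdh, of a separate pathway, was the gene whose levels ran most like those of Odc1 across the cell classes described below. Sequences are from RefSeq on GRCm38.p6, from 250 bases before to 50 bases after the start, and 6 of the 9 genes matched; Myc, Srm and Npm1 had no entry. Odc1 lies at chr12:17544623-17544922 on the plus strand and Phgdh at chr3:98339920-98340219 on the minus strand. Capitals mark CACGCG, a variant of the E-box, in Odc1 and CCAAT in Phgdh, on either strand.
Odc1: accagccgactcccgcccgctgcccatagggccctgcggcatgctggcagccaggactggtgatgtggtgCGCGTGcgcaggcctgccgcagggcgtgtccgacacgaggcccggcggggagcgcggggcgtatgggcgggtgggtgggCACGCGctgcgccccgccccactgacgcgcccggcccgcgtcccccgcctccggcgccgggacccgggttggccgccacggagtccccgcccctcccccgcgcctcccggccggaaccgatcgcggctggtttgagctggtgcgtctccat
Phgdh: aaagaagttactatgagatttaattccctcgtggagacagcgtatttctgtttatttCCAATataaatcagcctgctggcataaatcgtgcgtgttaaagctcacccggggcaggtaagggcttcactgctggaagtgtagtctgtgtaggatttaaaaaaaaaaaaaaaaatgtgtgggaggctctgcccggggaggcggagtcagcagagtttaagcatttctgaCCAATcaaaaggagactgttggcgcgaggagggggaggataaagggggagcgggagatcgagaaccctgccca
The pair differed in base composition, with 78.0% G and C in Odc1 and 47.7% in Phgdh, beside a median of 52.7% over 32851 promoters. None of the 7 windows of the 6 genes held the E-box CACGTG, which MYC binds with MAX and which 7.15% of all promoters held, or TGATGNAA, a form of the site of the amino-acid stress factor ATF4, which 3.97% held. CACGCG and CCAAT were added after the sequences had been seen. CACGCG, found in 9.27% of promoters, occurred 2 times in Odc1, 1 time in Shmt2 and 1 time in each of the 2 windows of Psat1. CCAAT, found in 37.4%, occurred 2 times in Phgdh, 3 times in Mthfd2 and 3 times in the first window of Psat1. No searched motif overlapped another in these windows, and the absence of a match says only that these letters are not there.

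Barcodes were gated by lineage markers and unique molecular identifiers (UMIs), which count captured molecules, were summed per library and class. The B-1 class held 3367 KO and 2316 WT barcodes, B-2 3453 and 1830, T 2209 and 1669, NK 270 and 249, and myeloid 691 and 208. The kept KO library had 18465 barcodes with a median of 2974 UMIs, against 9224 barcodes with a median of 6040.5 in the WT library. Genotype, mouse, library and depth therefore cannot be told apart, and no test between genotypes was made. Levels are in CPM, the share of a class's UMIs that fall on a gene, per 1000000, with 95% intervals for counting error only, and KO/WT ratios are ratios of CPM. The libraries shared 293 barcode sequences, 1.30% of KO and 2.91% of WT barcodes. CPM is not per gene length, so levels are compared within a gene and not between genes. Npm1 and Odc1 are known to have processed pseudogenes in the mouse, and the labels do not say how reads shared with such copies were counted.

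By point values, the cell class with the highest level was the same in both libraries for 8 of the 9 genes, and Phgdh had the steepest gradient. It was at 158 CPM in KO and 196 CPM in WT B-1 cells, and at 12.6 CPM in KO and 18.4 CPM in WT myeloid cells, so that the highest class was 12.5 times the lowest in KO and 10.7 times in WT. B-2, T and NK cells lay between them in that order in both libraries, with overlapping intervals for T and NK. Myc had the same order of classes, at 365 CPM in KO and 385 CPM in WT B-1 cells and 80.8 CPM in KO and 106 CPM in WT myeloid cells. Its B-1 and B-2 intervals overlapped in WT, as did NK and myeloid.

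Odc1 and Srm, the polyamine genes, were highest in B-1 cells and second in T cells. Odc1 in B-1 cells was 2.77 times its level in B-2 cells in KO and 2.81 times in WT, and Srm was 1.63 times in KO and 1.83 times in WT. Myc was nearly level between the B-cell subsets, at 1.08 times in KO and 1.05 times in WT. B-1 barcodes were deeper, at medians of 5364 UMIs in KO and 9680 in WT, beside 2610 and 3950 in B-2. Among barcodes of 6000 to 12000 UMIs, Odc1 was at 338 CPM in B-1 and 148 CPM in B-2 cells in KO. In WT it was at 485 and 273 CPM. Srm there was at 81.9 and 73.0 CPM in KO and 95.2 and 73.7 CPM in WT. Myc was at 366 and 338 CPM in KO, but at 387 and 456 CPM in WT. Psat1, which acts directly after Phgdh, was lowest in B-1 cells, at 4.06 CPM in KO and 4.67 CPM in WT, and highest in T cells, at 21.9 CPM in KO and 20.3 CPM in WT. Its B-1 level was 0.480 times its B-2 level in KO (0.354 to 0.652) and 0.720 times in WT (0.519 to 1.01), with an interval that included 1 in WT. Mthfd2 was highest in myeloid cells, at 43.3 CPM in KO and 46.3 CPM in WT, and lowest in NK cells. Ncl and Npm1 were highest in T and lowest in myeloid cells. Shmt2 had its highest level in T cells in KO and in NK cells in WT, with intervals that overlapped. For Psat1, Mthfd2 and Ncl too, the interval of the highest class overlapped that of the next class in both libraries. Intervals of the lowest class and the next overlapped in both libraries for Mthfd2 and Npm1.

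**Figure D1:**
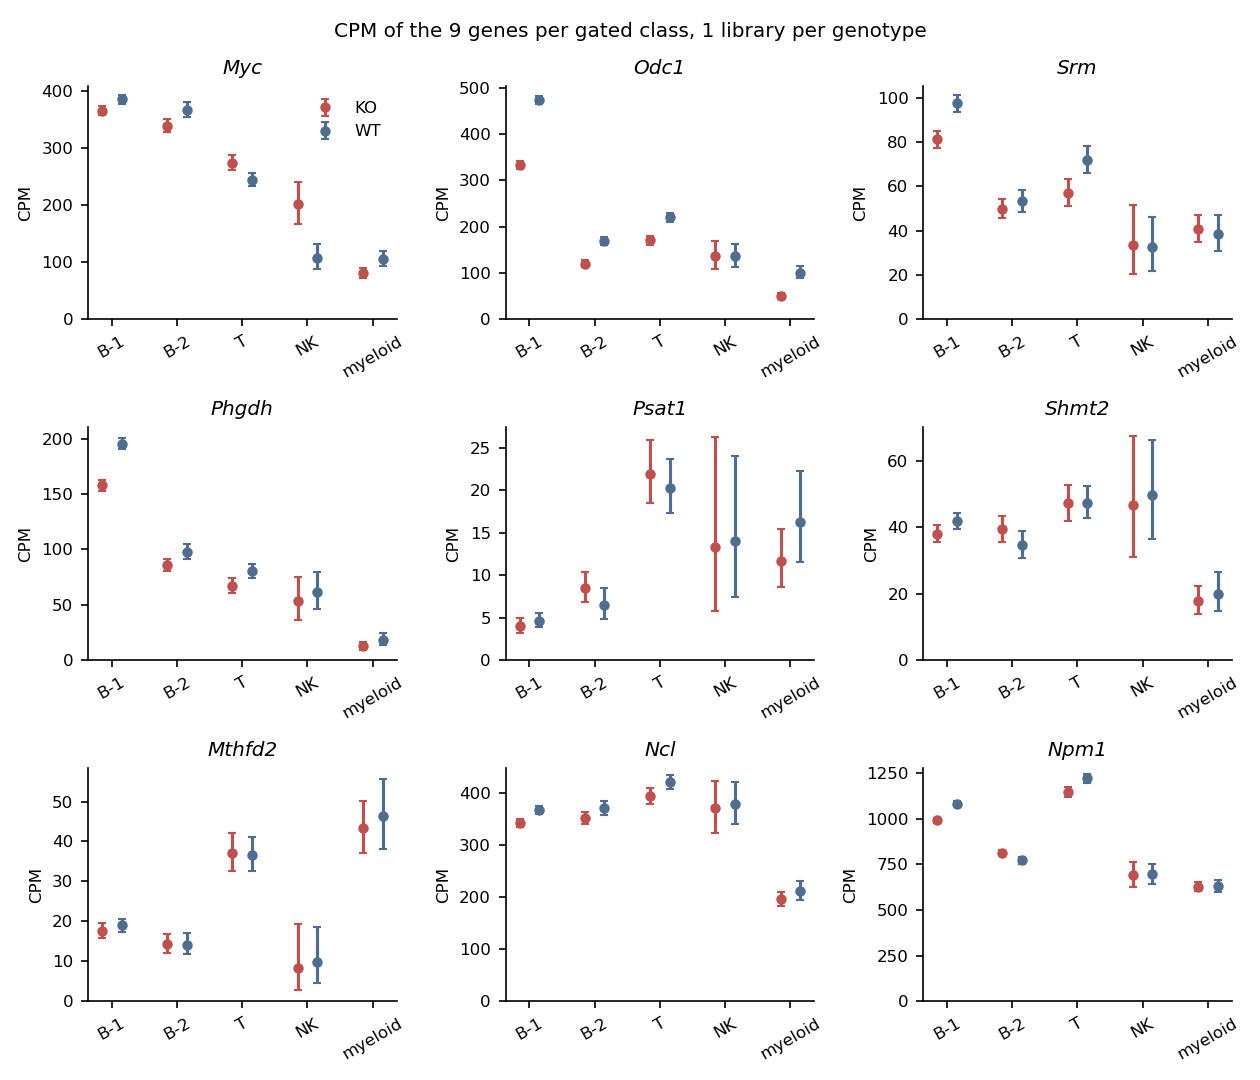
CPM (vertical axes, starting at 0) of each of the 9 genes in 5 gated classes, with KO in red left of WT in blue; points are 1 library each and bars are exact Poisson 95% intervals. Odc1 and Phgdh stand highest in B-1 cells, Psat1, Ncl and Npm1 in T cells, and the KO point of Odc1 lies below WT in every class but NK.

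In B-1 cells all 9 genes had a pooled KO/WT ratio below 1, and Odc1 had the lowest of them. Odc1 was at 333 CPM in KO and 474 CPM in WT B-1 cells, from 7301 and 12678 UMIs, a ratio of 0.703 (95% interval 0.683 to 0.724). Phgdh was at 158 CPM in KO and 196 CPM in WT, a ratio of 0.807 (0.772 to 0.842), and Srm at 81.2 CPM in KO and 97.4 CPM in WT, a ratio of 0.833 (0.784 to 0.885). Myc itself was closer to level, at 365 CPM in KO and 385 CPM in WT, a ratio of 0.949 (0.922 to 0.977). The nucleolar genes were at 341 CPM in KO and 366 CPM in WT for Ncl, a ratio of 0.932 (0.904 to 0.960), and at 990.0 CPM in KO and 1082.5 CPM in WT for Npm1, a ratio of 0.915 (0.899 to 0.931). Shmt2 had a ratio of 0.909 (0.830 to 0.995). The intervals of Psat1, at 0.870, and Mthfd2, at 0.928, included 1.

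A gene at a mean of 10 CPM or more over both libraries is called lower here at a KO/WT ratio of 0.8 or less and higher at a WT/KO ratio of 0.8 or less. Only Odc1 of the 9 was called in B-1 cells, as lower, beside 2.64% of 7153 genes called lower and 4.77% called higher. Its ratio was lower than that of all but 0.867% of these genes. The median log2 ratio of the 9 genes was -0.14, beside 0.02 over all genes, of which 42.8% had a ratio below 1. The difference in Odc1 held in every range of depth: the ratio was 0.612, 0.736, 0.698 and 0.688 among barcodes of 1000 to 3000, 3000 to 6000, 6000 to 12000 and 12000 to 24000 UMIs. With each barcode thinned to 2000 UMIs and left in its class, 42.7% of KO and 54.6% of WT B-1 barcodes held an Odc1 UMI. Without thinning 68.7% of KO and 87.4% of WT barcodes did. Myeloid cells, the class with least Odc1, gave 7.61% in KO and 12.1% in WT after thinning. The 159 KO and 29 WT B-1 barcodes under 2000 UMIs were left out. Phgdh was also lower in all 4 ranges, from 0.776 to 0.873, with an interval that held 1 in the shallowest. Ncl was below 1 in all 4, from 0.839 to 0.955. The lower pooled values of the other members were not seen in every range. At 1000 to 3000 UMIs Myc had a ratio of 1.31, Srm of 1.91 and Shmt2 of 1.47. Npm1 had 1.05 at 3000 to 6000 UMIs, and at 6000 to 12000 UMIs Mthfd2 had 1.22 and Psat1 1.001. All these intervals included 1. The median ratio over all genes was 0.809 in the shallowest range, below that of Phgdh at 0.844, and from 0.982 to 1.02 in the other ranges. The B-cell markers Cd79a, Cd79b and Ms4a1 summed to 7728 CPM in KO and 6590.5 CPM in WT B-1 cells, with 3 of 3 higher in KO, and the 6 dividing-cell markers to 20.7 CPM in KO and 13.8 CPM in WT; their part in the ratios was not tested.

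**Figure D2:**
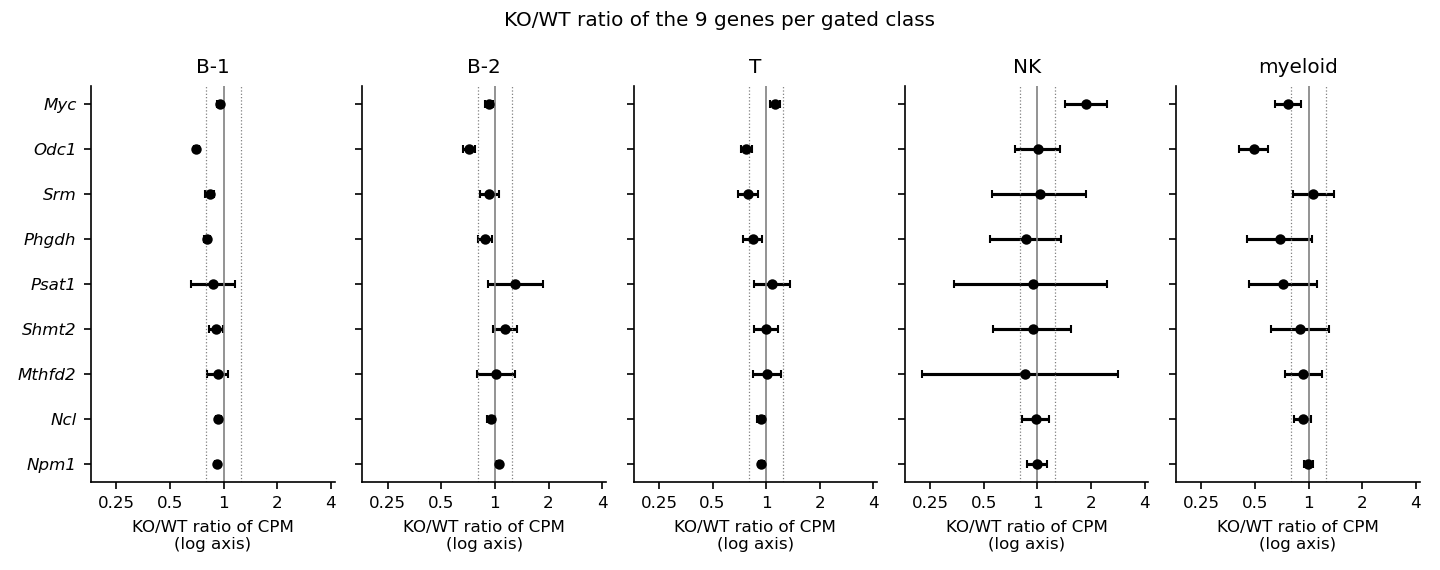
KO/WT ratio of CPM (log axis) of the 9 genes in each class, with exact conditional binomial 95% intervals; dotted lines mark KO/WT and WT/KO ratios of 0.8. Odc1 lies left of the dotted line in B-1, B-2, T and myeloid cells and at 1.004 in NK cells, whereas Myc lies right of 1 in T and NK cells.

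Grouping B cells by heavy-chain V gene separates cells of different receptor families. IGHV11-2 and IGHV12-3 are the V genes of the recurrent B-1 receptors against phosphatidylcholine. Over all B cells with exactly 1 heavy chain, 11 V genes had at least 100 barcodes in each library. Odc1 had a ratio below 1 in 11 of 11, from 0.496 in IGHV1-55 to 0.840 in IGHV6-6, and an interval below 1 in 10. Srm was below 1 in 11 of 11 with 4 intervals below 1, and Phgdh in 10 of 11 with 7. Myc was below 1 in 8 of 11, with 4 intervals below 1 and 1 above it, in IGHV3-6 at 381 CPM in KO and 284 CPM in WT, a ratio of 1.34 (1.15 to 1.57). For every one of these V genes, a smaller share of KO than of WT barcodes passed the B-1 gate (62.1% and 72.3% for IGHV11-2, 16.7% and 24.4% for IGHV3-6), and the V-gene groups share the same 2 libraries.

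Within the B-1 gate the ratio of Odc1 was below 1 in each receptor group. Odc1 was at 366 CPM in KO and 545 CPM in WT for IGHV11-2, a ratio of 0.672 (0.611 to 0.738). IGHV12-3 gave 393 CPM in KO and 538 CPM in WT, a ratio of 0.730 (0.676 to 0.788), and all other V genes gave 316 CPM in KO and 470 CPM in WT, a ratio of 0.673 (0.637 to 0.711). Among these, IGHV1-55 (79 KO and 61 WT barcodes) was lower, at 248 CPM in KO and 525 CPM in WT, a ratio of 0.472 (0.372 to 0.594), with an interval below those of the other groups. Its barcodes came from 35 clones in KO and 31 in WT, and the interval covers counting error only, so the group was not shown to differ. IGHV11-2 cells came from few clones, 20 among 288 KO and 25 among 305 WT barcodes, so they are far from independent cells. With 1 barcode per clone the ratio of Odc1 in B-1 cells was 0.636.

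The receptor families did differ in level within each library. IGHV12-3 B-1 cells had more Phgdh than B-1 cells with other V genes, by 1.41-fold in KO (1.26 to 1.56) and 1.44-fold in WT (1.32 to 1.57). IGHV11-2 B-1 cells had more Myc, by 1.31-fold in KO (1.21 to 1.42) and 1.24-fold in WT (1.17 to 1.32). For Myc in IGHV12-3 cells the values were 1.03-fold in KO and 0.955-fold in WT, with both intervals including 1. Odc1 was higher in both families in both libraries, from 1.15-fold to 1.24-fold.

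**Figure D3:**
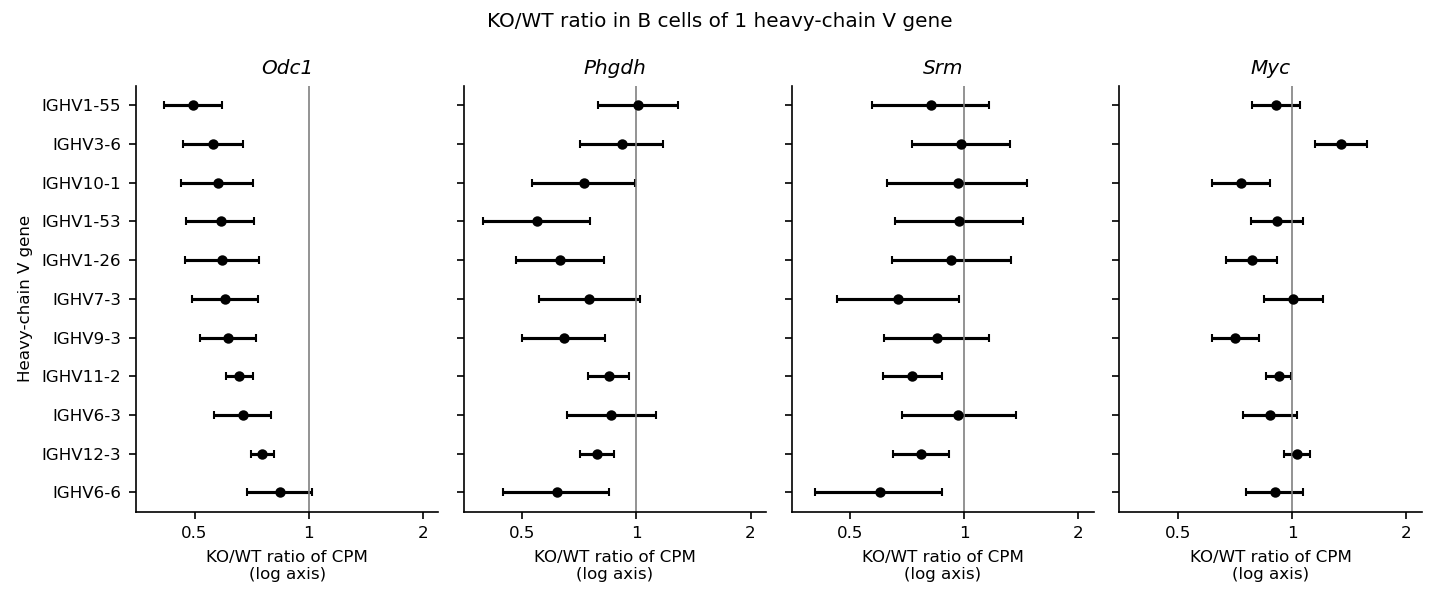
KO/WT ratio of CPM (log axis) of Odc1, Phgdh, Srm and Myc in B cells carrying each of 11 heavy-chain V genes, ordered by the Odc1 ratio; bars are 95% intervals for counting error. All 11 Odc1 points lie left of 1, and Myc has points on both sides.

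In B-2 cells Odc1 was again the lowest of the 9, at 120 CPM in KO and 168 CPM in WT, a ratio of 0.715 (0.662 to 0.771). It was the only member called, beside 5.86% of 7403 genes called lower and 3.32% called higher. Phgdh was at 85.8 CPM in KO and 97.5 CPM in WT, a ratio of 0.880 (0.799 to 0.969), and Myc at 339 CPM in KO and 367 CPM in WT, a ratio of 0.924 (0.880 to 0.970). Npm1 lay on the other side of 1, at 811 CPM in KO and 772 CPM in WT, a ratio of 1.05 (1.02 to 1.08). Psat1 at 1.30, which was under 10 CPM and so not called, Shmt2 at 1.14, Mthfd2 at 1.01 and Srm at 0.932 had intervals including 1, and Ncl had a ratio of 0.951 (0.906 to 0.998). The median log2 ratio was -0.07, beside -0.03 over all genes.

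The B-2 difference in Odc1 was seen in the deepest barcodes, and the change between ranges of depth was not tested. At 1000 to 3000 UMIs Odc1 was at 102 CPM in KO and 80.5 CPM in WT, a ratio of 1.27 (0.987 to 1.66), and at 3000 to 6000 UMIs at 128 CPM in KO and 125 CPM in WT, a ratio of 1.02 (0.910 to 1.15). At 6000 to 12000 UMIs it was at 148 CPM in the 228 KO barcodes and 273 CPM in the 308 WT barcodes, a ratio of 0.542 (0.468 to 0.627). Phgdh ran the same way, with ratios of 1.66, 1.01 and 0.755, and Myc with 1.19, 1.08 and 0.741. The 11 B-1 marker genes in these B-2 barcodes summed, from the shallowest to the deepest range, to 51.7, 78.8 and 120 CPM in KO and 24.9, 54.2 and 107 CPM in WT, and their part in the ratios was not tested. After thinning to 2000 UMIs and gating again on the thinned counts, the ratio of Odc1 in B-2 cells was 0.966. With thinned barcodes left in their class, Odc1 was at 121 CPM in KO and 135 CPM in WT. Under a stricter gate the ratio was 0.895.

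**Figure D4:**
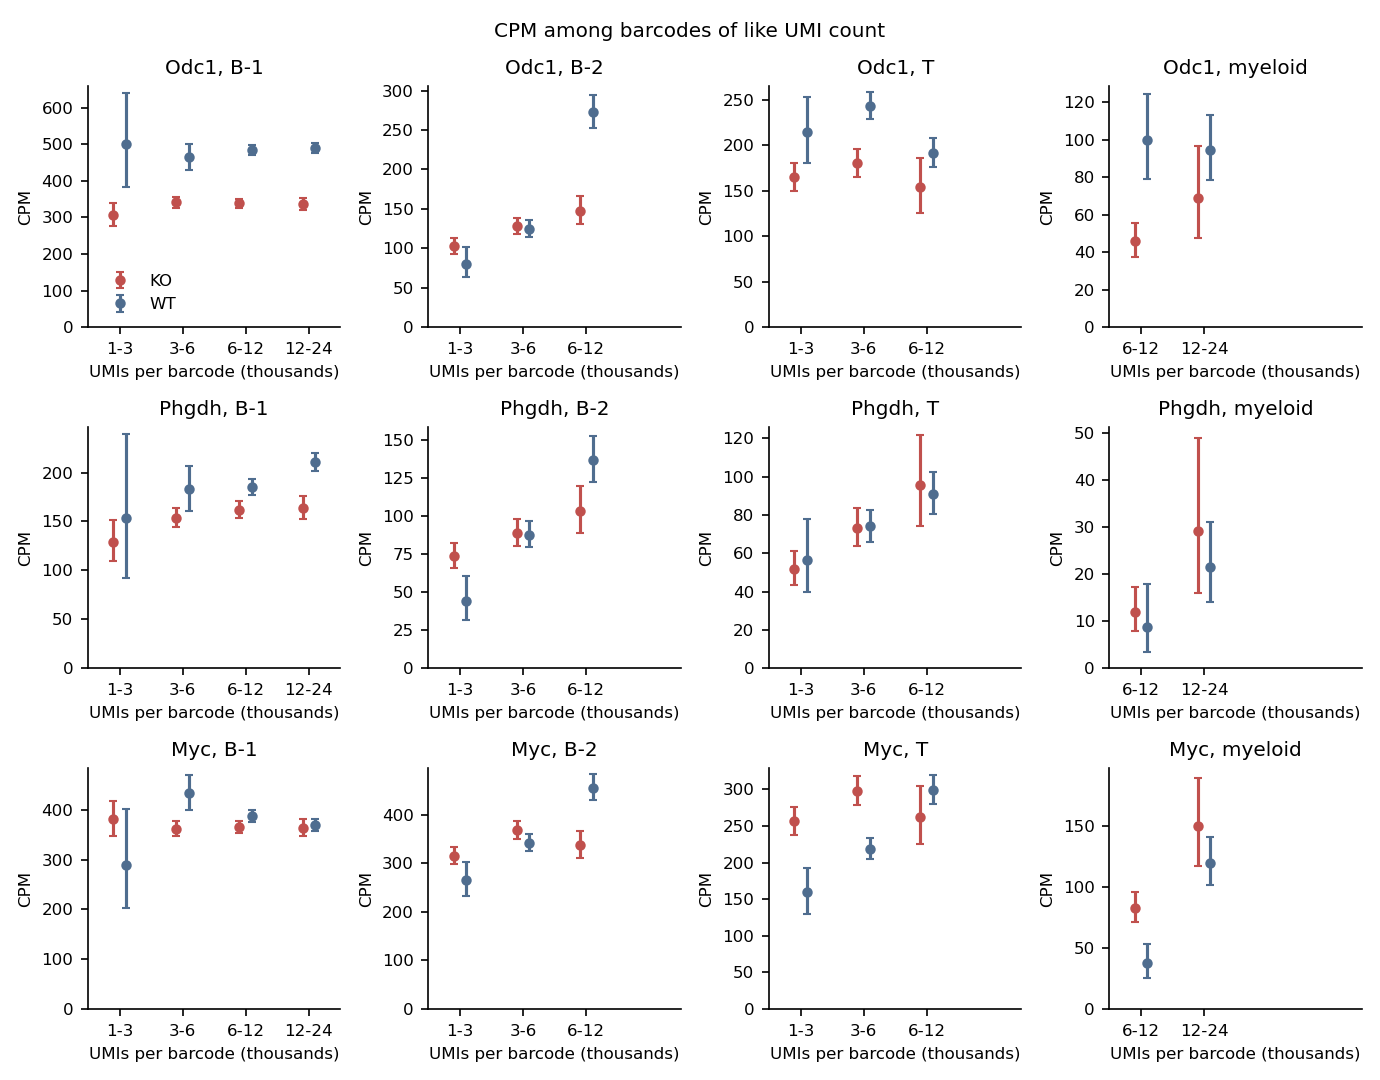
CPM (vertical axes, starting at 0) of Odc1, Phgdh and Myc among barcodes of like UMI count (horizontal axes, in units of 1000 UMIs), with KO in red left of WT in blue and exact Poisson 95% intervals; ranges with under 20 barcodes in either library are not drawn. Odc1 in B-1 cells is lower in KO in all 4 ranges, whereas in B-2 cells it is lower in KO at 6000 to 12000 UMIs alone.

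In T cells Odc1 was lower and Myc higher in the KO library. Odc1 was at 170 CPM in KO and 220 CPM in WT, a ratio of 0.775 (0.718 to 0.836), and Srm at 57.0 CPM in KO and 71.9 CPM in WT, a ratio of 0.792 (0.692 to 0.905). These were the 2 members called lower, beside 5.24% of 7582 genes called lower and 7.97% called higher. Myc was at 274 CPM in KO and 244 CPM in WT, a ratio of 1.12 (1.05 to 1.20). Phgdh was at 67.2 CPM in KO and 80.2 CPM in WT, a ratio of 0.839 (0.740 to 0.949). Ncl, at 394 CPM in KO and 420 CPM in WT, and Npm1, at 1144 CPM in KO and 1221 CPM in WT, each had a ratio of 0.937. Psat1, Shmt2 and Mthfd2 had ratios of 1.08, 0.996 and 1.01 with intervals including 1. The median log2 ratio was -0.09, beside 0.02 over all genes.

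The T-cell value of Odc1 was the least dependent on depth, with ratios of 0.768, 0.742 and 0.804 at 1000 to 3000, 3000 to 6000 and 6000 to 12000 UMIs. Those of Myc were 1.61, 1.36 and 0.878, with the last interval including 1 (0.744 to 1.03). Those of Phgdh were 0.913, 0.990 and 1.06, and those of Srm 1.36, 1.02 and 0.644, so the lower pooled values of Phgdh and Srm were not seen in every range. Ncl had a ratio of 1.02 and Npm1 of 1.01 after thinning. The T classes also differed in make-up. The 3 markers of gamma-delta T cells summed to 236 CPM in KO and 94.7 CPM in WT, with 3 of 3 higher in KO, Cd4 was at 119 CPM in KO and 153 CPM in WT, and the B-cell markers Cd79a, Cd79b and Ms4a1 summed to 109 CPM in KO and 31.2 CPM in WT, with 3 of 3 higher in KO. Without barcodes holding a UMI of any B-lineage gate marker the ratio of Odc1 in T cells was 0.767 and that of Myc was 1.16.

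Sub-gates set after the data had been seen gave the values within T-cell subsets. In CD4 T cells (486 KO and 657 WT barcodes) Odc1 was at 227 CPM in KO and 290 CPM in WT, a ratio of 0.781 (0.688 to 0.885). In CD8 T cells (354 and 290) it was at 113 CPM in KO and 118 CPM in WT, a ratio of 0.959 (0.765 to 1.20). In gamma-delta T cells (158 and 55) it was at 226 CPM in KO and 242 CPM in WT, a ratio of 0.931 (0.700 to 1.24). The 3 intervals overlap, so the subsets were not shown to differ. Srm was at 61.1 CPM in KO and 98.8 CPM in WT CD8 T cells, a ratio of 0.618 (0.463 to 0.818), and Ncl at 392 CPM in KO and 480 CPM in WT, a ratio of 0.816 (0.727 to 0.915). Myc in CD8 T cells had a ratio of 1.21 (1.06 to 1.38), and in gamma-delta T cells of 0.712 (0.496 to 1.02).

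In NK cells the ratio of Odc1 was near 1 and that of Myc was above 1. Odc1 was at 137 CPM in KO and 136 CPM in WT, a ratio of 1.004 (0.751 to 1.34), from 82 and 126 UMIs. Myc was at 202 CPM in KO and 108 CPM in WT, a ratio of 1.87 (1.42 to 2.46), from 121 and 100 UMIs. It was the only member called, but in this small class 22.7% of 7735 genes were called higher and 19.4% lower. Myc was 1.57-fold higher in KO at 1000 to 3000 UMIs (0.985 to 2.59) and 2.19-fold higher at 3000 to 6000 UMIs (1.43 to 3.33). After thinning, 24.1% of KO and 15.02% of WT NK barcodes held a Myc UMI, and without thinning 25.2% of KO and 22.1% of WT barcodes did. Thinning left out 133 of the 270 KO and 16 of the 249 WT NK barcodes. Thinned myeloid cells, the class lowest in Myc, gave 12.7% in KO and 10.1% in WT. The 6 dividing-cell markers summed to 103 CPM in KO and 16.2 CPM in WT NK cells, with 6 of 6 higher in KO, and the 8 immediate-early genes to 7084 CPM in KO and 9171 CPM in WT, with 8 of 8 lower in KO. Without dividing barcodes the ratio of Myc in NK cells was 1.81. The other 7 members had intervals including 1, and Mthfd2, from 5 and 9 UMIs, was under 10 CPM in both libraries.

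In myeloid cells Odc1 had its lowest ratio of any class, at 49.5 CPM in KO and 101 CPM in WT, a ratio of 0.492 (0.407 to 0.595), from 208 and 241 UMIs. Phgdh, Psat1 and Myc were also called lower, beside 13.2% of 7379 genes called lower and 10.5% called higher. Phgdh had a ratio of 0.687 (0.452 to 1.05) and Psat1 of 0.716 (0.461 to 1.12), both with intervals including 1. At 6000 to 12000 and 12000 to 24000 UMIs the ratios were 1.366 and 1.363 for Phgdh and 0.850 and 1.43 for Psat1, all with intervals including 1, so the lower pooled value of Phgdh was seen in neither range and that of Psat1 in 1 of them. The median log2 ratio of the 9 genes was -0.17, beside -0.00 over all genes. Odc1 kept a ratio below 1 at 6000 to 12000 UMIs, at 0.460 (0.341 to 0.624), and had 0.729 (0.480 to 1.08) at 12000 to 24000 UMIs. It was also lower in cells sub-gated as small peritoneal macrophages, at 46.1 CPM in KO and 79.9 CPM in WT, a ratio of 0.577 (0.405 to 0.825), and as dendritic cells, at 61.6 CPM in KO and 101 CPM in WT, a ratio of 0.611 (0.418 to 0.894). In cells sub-gated as large macrophages (25 KO and 12 WT barcodes) Odc1 was at 40.4 CPM in KO and 26.8 CPM in WT. That ratio was 1.51 (0.344 to 9.04), from 7 and 3 UMIs.

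Myc in myeloid cells turned round with depth. The pooled level was 80.8 CPM in KO and 106 CPM in WT, a ratio of 0.766 (0.649 to 0.905). At 6000 to 12000 UMIs it was at 83.1 CPM in KO and 37.4 CPM in WT, a ratio of 2.22 (1.504 to 3.38), and at 12000 to 24000 UMIs at 150 CPM in KO and 120 CPM in WT, a ratio of 1.254 (0.933 to 1.67). The WT class held 8 barcodes of 24000 UMIs or more, which carried 24.1% of its Myc UMIs and 14.9% of its Odc1 UMIs; the KO class held 0 such barcodes. The 5 large-macrophage markers summed to 378 CPM in KO and 634 CPM in WT, with 5 of 5 lower in KO, and the 6 dividing-cell markers to 14.5 CPM in KO and 73.8 CPM in WT, with 6 of 6 lower in KO. The same 3 B-cell markers summed to 368 CPM in KO and 408 CPM in WT, with 3 of 3 lower in KO. Within ranges of like depth the B-cell sums ran the other way. From 6000 UMIs up, the large-macrophage sums did so at 6000 to 12000 but not at 12000 to 24000 UMIs. The dividing-cell sums stayed lower in KO in both of these ranges. The shallower ranges held few WT barcodes, 13 at 1000 to 3000 and 17 at 3000 to 6000 UMIs. There the dividing-cell sums were higher in KO. The large-macrophage sum was lower in KO at 1000 to 3000 UMIs and higher at 3000 to 6000 UMIs. At 6000 to 12000 UMIs the B-cell markers summed to 328 CPM in KO and 22.5 CPM in WT, the large-macrophage markers to 386 CPM in KO and 205 CPM in WT, and the dividing-cell markers to 7.96 CPM in KO and 9.98 CPM in WT. At 12000 to 24000 UMIs the B-cell markers summed to 900.3 CPM in KO and 501 CPM in WT. The large-macrophage markers summed to 687 CPM in KO and 738 CPM in WT, and the dividing-cell markers to 10.4 CPM in KO and 23.8 CPM in WT. The part of these markers in the ratio of Myc was not tested. In the whole class 9.26% of KO and 9.62% of WT myeloid barcodes also held a heavy chain. Without barcodes holding a UMI of any B-lineage gate marker the ratio of Odc1 was 0.531, that of Phgdh 0.945 and that of Myc 0.881.

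Serine and one-carbon enzymes supply nucleotide synthesis, which dividing cells need. Among B cells with at least 2 UMIs of dividing-cell markers (84 KO and 74 WT barcodes), Mthfd2 was higher than in other B cells by 3.56-fold in KO (2.58 to 4.79) and 2.34-fold in WT (1.74 to 3.10). Psat1 was higher by 3.12-fold in KO and 2.96-fold in WT, from 14 and 19 UMIs, and Phgdh by 1.44-fold in KO and 1.37-fold in WT. Shmt2 was at 0.893-fold in KO (0.601 to 1.28) and 1.36-fold in WT (1.06 to 1.71). Odc1 was at 1.14-fold in KO and 1.002-fold in WT, with both intervals including 1, and Myc was at 0.881-fold in KO and 0.963-fold in WT. In dividing T cells (33 KO and 27 WT barcodes) Odc1 was higher than in other T cells, by 1.65-fold in KO (1.22 to 2.18) and 1.68-fold in WT (1.32 to 2.11); the difference from B cells was not tested, and the B and T intervals overlapped in KO. Within non-dividing B cells the ratio of Odc1 was 0.644 (0.630 to 0.659), and within dividing B cells it was 0.733 (0.627 to 0.854). These B cells pool the B-1 and B-2 classes with the barcodes of no subset, and B-1 cells made up 18.2% of all kept KO and 25.1% of all kept WT barcodes.

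Counts over the wider pathways were mixed. Of the other polyamine genes at 10 CPM or more in B-1 cells, 4 of 11 had a ratio below 1 and the median log2 ratio was 0.01. Over all genes there, 42.8% were below 1 and the median was 0.02. Sms, which makes spermine, was at 56.1 CPM in KO and 65.2 CPM in WT, a ratio of 0.861, and Eif5a, the translation factor that carries the spermidine-derived residue hypusine, was at 613 CPM in KO and 697 CPM in WT, a ratio of 0.880. Sat1, which acetylates polyamines for breakdown and export, was at 146 CPM in KO and 128 CPM in WT. Its ratios were 1.14 in B-1, 1.12 in B-2 and 1.15 in T cells, each with an interval above 1. In T cells Oaz2, an inhibitor of ODC1, and the lysosomal transporter gene Atp13a2 were called lower and Smox, which oxidises spermine, was called higher, among 12 other polyamine genes, beside 5.24% of all genes called lower and 7.97% called higher. The intervals of Oaz2 (0.550 to 1.01) and Atp13a2 (0.542 to 1.07) included 1, and that of Smox (1.26 to 1.85) did not.

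Of the other serine and one-carbon genes in B-1 cells, 5 of 6 had a ratio below 1 and the median log2 ratio was -0.12, with 0 called. Over all genes there, 42.8% were below 1, 2.64% were called lower and 4.77% higher. Atf4, the transcription factor of the amino-acid response, was at 102 CPM in KO and 111 CPM in WT B-1 cells, a ratio of 0.918, and its ratio was 0.899 in B-2, 0.806 in T and 0.730 in NK cells, with all 4 intervals below 1. Slc1a5, a transporter of neutral amino acids, had a ratio of 1.10 (1.05 to 1.16) in B-1 cells and 1.31 (1.05 to 1.65) in myeloid cells, and of 0.962 in B-2, 1.03 in T and 1.11 in NK cells with intervals including 1. In T cells 1 of 7 was below 1, and Tyms, thymidylate synthase, was called higher. Over all genes in T cells, 45.2% were below 1 and 7.97% were called higher. Of the other genes of the MYC network in B-1 cells, 5 of 9 were below 1, beside 42.8% of all genes. Mxd4, which competes with MYC for MAX, was at 110 CPM in KO and 134 CPM in WT B-1 cells, a ratio of 0.818. Max was at 68.8 CPM in KO and 82.8 CPM in WT B-2 cells, a ratio of 0.831.

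Most nucleolar genes had ratios slightly below 1 in B-1 and T cells. In B-1 cells 28 of the 31 other nucleolar and ribosome-assembly genes at 10 CPM or more had a ratio below 1. Their median log2 ratio was -0.11, with 0 called. Over all genes there, 42.8% were below 1, 2.64% were called lower and 4.77% higher. Fbl, the methyltransferase of small nucleolar RNPs, was at 170 CPM in KO and 204 CPM in WT, a ratio of 0.835, Npm3 had 0.845, and Gar1, a protein of the box H/ACA particles, had 0.869. In T cells 26 of 31 were below 1 with a median of -0.05, beside 45.2% of all genes, and Nop56 had a ratio of 0.801 and Gnl3 of 0.823. In B-2 cells 18 of 30 were below 1, with a median of -0.04, beside 56.9% of all genes, and in myeloid cells 11 of 30, with a median of 0.04, beside 50.3%. In NK cells 15 of 31 were below 1, with 7 called lower and 5 called higher, beside 48.1% of all genes below 1, 19.4% called lower and 22.7% called higher. These genes were measured in the same libraries and share their depth, so their counts are not repeats of one another.

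**Figure D5:**
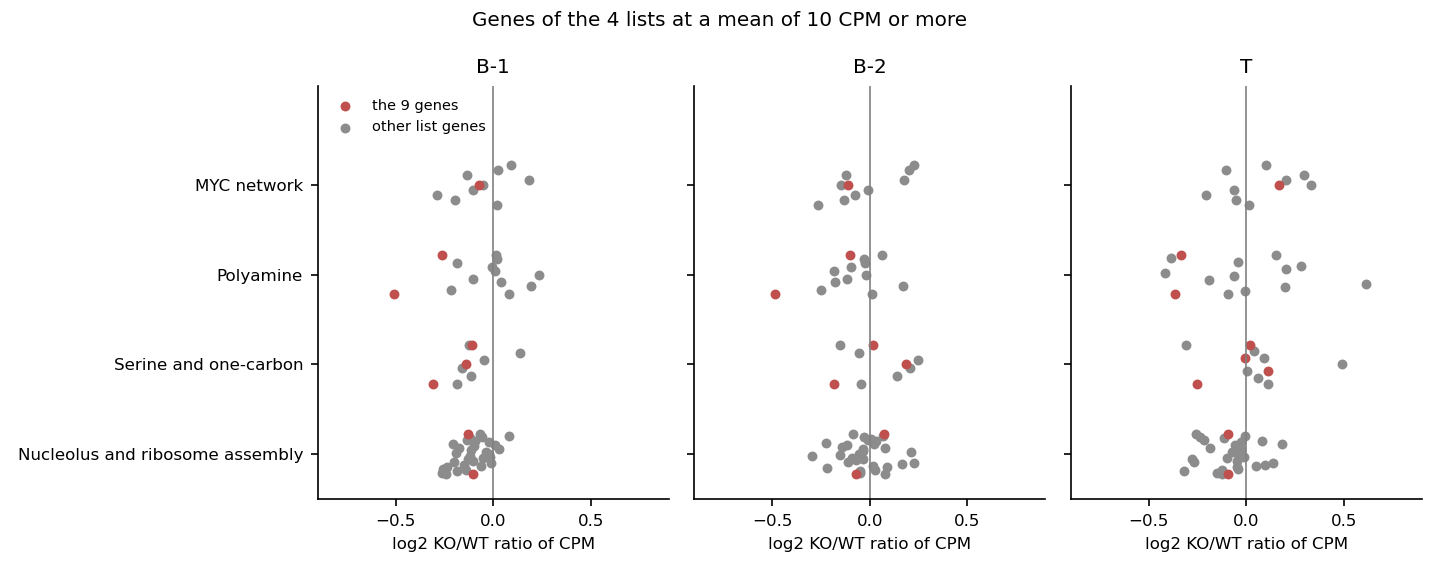
log2 KO/WT ratio of CPM of each gene at a mean of 10 CPM or more in 4 lists, for B-1, B-2 and T cells; red points are members and grey points are the other genes, spread vertically for display. Odc1 is the leftmost member of the polyamine row in all 3 classes, and the nucleolar genes of B-1 cells lie mostly left of 0.

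Across the 10 class and library values, the gene most like Odc1 in log2(CPM + 1) was Phgdh, with a Pearson correlation of 0.911 among 2844 genes at a mean of 50 CPM or more, followed by Micos13 at 0.885 and Prdx3 at 0.867. Phgdh was most like B3gnt2, at 0.974, and Ubtf, at 0.947, and Myc most like Cnp, at 0.952, Rasgrp2, at 0.951, and Tcof1, at 0.949. Shmt2 was most like Rac2, at 0.991, Ncl like Llph, at 0.987, Npm1 like Imp3, at 0.958, Srm like Eef1b2, at 0.942, Psat1 like Clint1, at 0.957, and Mthfd2 like Ecm1, at 0.936. Between members, Shmt2 and Ncl were the most alike, at 0.969, whereas Odc1 and Psat1 were at -0.49. These are descriptions over 5 classes in 2 libraries, and the points of a library share its depth.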

How the data were processed

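Droplet expression libraries of sorted peritoneal cells were analysed, 1 per genotype, with the matching B-cell receptor libraries. The authors deposited unnormalised UMI counts per gene and barcode. The count files carry a Cell Ranger 6.1.2 header, but the submitters' processing notes list version 6.0.1 of that tool, with Seurat 4.3.0 and mm39, so the annotation behind the counts is uncertain. The deposited receptor tables hold read and UMI counts per contig, joined here by barcode. The knocked-out gene and a marker of the B-lineage gate are not reported here.

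Barcodes were kept at 200 or more genes and less than 10% mitochondrial UMIs. Scrublet (scanpy 1.11.5) set its own threshold at 2067 KO and 0 WT barcodes, so it had not worked in WT. The highest scores were removed instead at 0.8% per 1000 barcodes, 3863 in KO and 794 in WT. Before these filters the libraries held 22516 KO and 10087 WT barcodes with 103953298 and 81817635 UMIs.

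A barcode entered a lineage with at least 3 marker UMIs that made up 80% of all lineage-marker UMIs. B cells entered the B-1 or B-2 class with at least 2 subset-marker UMIs at 75%, and 6192 KO and 2359 WT B barcodes without a subset entered only the V-gene and dividing-cell comparisons. A total of 2268 KO and 586 WT barcodes entered no lineage. T subsets, macrophages and dendritic cells used thresholds set after the data had been seen.

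UMIs were summed per library and class and scaled to CPM. Intervals are exact Poisson (levels), exact conditional binomial (ratios) and Clopper-Pearson (shares) at 95%, computed with scipy 1.17.1 and tested on simulated data. They cover counting error only. A genotype has 1 library, so there are no p-values. Background counts used genes at a mean of 10 CPM or more over both libraries. Named genes were all 9 members, up to 3 others per list and class at a mean of 50 CPM or more with the largest ratios in either direction, and the 3 genes most like each member; list genes called lower or higher (KO/WT or WT/KO at 0.8 or less) were named too, after their values were seen. The members and lists were chosen with earlier results of these data known. Alternatives changed doublets, scaling, depth, gates, mitochondrial limits, dividing barcodes, clones and the low-value filter. The thinned alternative also gated barcodes again on the thinned counts, whereas shares of thinned barcodes kept the original gate.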

Additional observations from a re-analysis of the deposited data

Results flagged for a closer look

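Myc differed in direction between classes in the pooled values. Its KO/WT ratio was 0.949 in B-1, 0.924 in B-2 and 0.766 in myeloid cells, with intervals below 1, and 1.12 in T and 1.87 in NK cells, with intervals above 1. The difference between classes was not tested. The myeloid value was above 1 at 6000 to 12000 and 12000 to 24000 UMIs, with an interval including 1 in the deeper range. At 1000 to 3000 and 3000 to 6000 UMIs, with 13 and 17 WT barcodes, it was below 1 with intervals including 1. Npm1 likewise had pooled ratios of 0.915 in B-1 and 0.937 in T cells, and 1.05 in B-2 cells, with intervals on either side of 1. This difference was not tested. At 1000 to 3000 and 3000 to 6000 UMIs Npm1 was above 1 in both T cells, at 1.18 and 1.10, and B-2 cells, at 1.16 and 1.23. At 6000 to 12000 UMIs it was at 0.892 in T and 0.975 in B-2 cells.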

How the results depend on the processing

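No paired analysis was possible because each genotype has 1 library, and no library could be left out. Of 549 alternative values of single ratios, 492 stayed within the counting interval of the reported value, 49 moved further and 8 turned round, where turning round counts only ratios whose own interval left out 1. Ratios whose interval included 1 also crossed it, such as Phgdh in myeloid cells, which was above 1 in 3 of 12 alternatives and reached 1.364, beside 0.687. The ratio of Odc1 ranged from 0.636 to 0.726 in B-1, 0.695 to 0.966 in B-2, 0.742 to 0.779 in T, 0.492 to 0.624 in myeloid and 0.827 to 1.59 in NK cells.

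The values that turned round did so with depth or the gate. After thinning to 2000 UMIs and gating again Ncl was at 1.04 in B-2 and 1.02 in T cells, Npm1 at 1.01 in T cells and Myc at 1.19 in myeloid cells. With thinned barcodes left in their class, the T-cell values of Ncl and Npm1 did not turn round. Ncl was at 390 CPM in KO and 395 CPM in WT, and Npm1 at 1158 CPM in KO and 1161 CPM in WT. Ncl in B-2 and Myc in myeloid cells were still higher in KO. With UMI ranges weighted alike Npm1 was at 1.03 in T and Myc at 1.48 in myeloid cells, and under the stricter gate Ncl was at 1.01 in B-2 and 1.02 in T cells. The median log2 ratio of the 9 genes kept its sign in B-1 cells, from -0.26 to -0.11. In T cells it was 0.016 after thinning, 0.049 with UMI ranges weighted alike and 0.027 under the stricter gate, beside -0.09. With UMI ranges weighted alike it was 0.10 in B-2 cells, beside -0.07, and 0.17 in myeloid cells, beside -0.17. The cause was not tested.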
